A study of Mus musculus with 2 samples.

Results

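A DNase footprint is a short stretch inside open chromatin that DNase I cuts less often than its surroundings. The footprints described here are the long ones, defined as every interval of 30 bp or more in the deposited footprint lists of mouse adrenal gland. There were 11395 of them among 297594 footprints in replicate 1 (3.83%) and 16954 among 298189 in replicate 2 (5.69%). They were chosen by their measured width, which is given below as a description and supports nothing. Chromatin accessibility was assayed by DNase-seq on whole adrenal glands of female mice of the F1 hybrid strain B6CASTF1/J at 36 days of age, with no treatment named. The 2 libraries form 1 group, labelled biological replicates 1 and 2; the labels number the animals differently but give both the same donor record. A whole gland mixes steroid-producing cortex, chromaffin cells of the medulla, vessels, stroma and blood cells, so a footprint cannot be assigned to a cell type.

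Most transcription factors touch a few turns of the DNA helix at most, whereas proteins with many DNA-binding fingers, multiprotein complexes and neighbouring factors can shield a longer stretch. CTCF is a protein with an array of zinc fingers that reads a long DNA element and marks insulators and the anchors of chromatin loops. RNA polymerase III transcribes the tRNA genes, whose A and B boxes lie inside the gene and recruit TFIIIC, which in turn places TFIIIB just upstream of the start. REST, also called NRSF, is a zinc finger repressor that binds a long element at genes of neurons and neuroendocrine cells.

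The sequences below show the recurring kinds of long footprint, chosen for what they hold. All are from the RefSeq copy of GRCm38.p6, which is mm10, at the interval of replicate 1, on the strand that carries the element, from 5′ to 3′. The first 3 are CTCF footprints of 30 to 35 bp, and capitals mark the CTCF core, searched as CC, 3 bases of any kind, AG, 2 bases of any kind and GGC:
CTCF near Ptma, chr1:86525460-86525490, minus strand: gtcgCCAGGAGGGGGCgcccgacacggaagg
CTCF near Gm31166, chr19:5529508-5529537, plus strand: tcgaCCAGCAGAGGGCgccgcggaaccgtc
CTCF near Gm11200, chr11:79214115-79214144, minus strand: ccggggCCGGCAGGGGGCgccaaagcctgc
The next are CTCF footprints of 41 bp or more, and capitals mark an upstream element, TGCANTNCC, and then the core:
wide CTCF near Gm30717, chr7:125393824-125393868, minus strand: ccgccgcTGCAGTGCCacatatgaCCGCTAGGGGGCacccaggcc
wide CTCF near Cebpb, chr2:167685302-167685348, plus strand: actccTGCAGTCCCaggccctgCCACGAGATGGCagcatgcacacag
wide CTCF near H2-D1, chr17:35258314-35258354, plus strand: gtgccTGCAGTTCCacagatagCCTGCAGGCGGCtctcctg
The third set lies at tRNA genes, upstream of the gene or inside it, and capitals mark the B box GGTTCGA where it is present:
upstream of n-TNgtt14 (tRNA-Asn), chr5:149229084-149229127, minus strand: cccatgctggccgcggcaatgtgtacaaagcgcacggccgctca
inside n-TNgtt14, chr5:149229001-149229037, minus strand: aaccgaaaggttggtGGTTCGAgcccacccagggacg
upstream of n-TStga3 (tRNA-Ser), chr10:63429571-63429609, minus strand: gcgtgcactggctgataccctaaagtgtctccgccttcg
inside n-TStga3, chr10:63429478-63429517, minus strand: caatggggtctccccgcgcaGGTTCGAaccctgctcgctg
The last set holds the elements of other regulators at named genes, with the element in capitals:
REST at Chga, chr12:102555231-102555262, plus strand: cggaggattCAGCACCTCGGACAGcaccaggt
REST at Chgb, chr2:132781786-132781820, plus strand: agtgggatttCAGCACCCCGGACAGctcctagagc
REST at Snap25, chr2:136714333-136714363, plus strand: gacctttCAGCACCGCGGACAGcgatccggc
E-boxes in an intron of Nr1d1, chr11:98773853-98773887, plus strand: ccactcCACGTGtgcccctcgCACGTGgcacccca
CArG box downstream of Fos, chr12:85486100-85486132, plus strand: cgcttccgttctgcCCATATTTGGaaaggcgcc
CArG box downstream of Junb, chr8:84976617-84976649, plus strand: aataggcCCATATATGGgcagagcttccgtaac
CRE at Gtf3c1, chr7:125707796-125707834, plus strand: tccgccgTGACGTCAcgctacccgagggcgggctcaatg
NRF1 at Nup107, chr10:117792797-117792829, plus strand: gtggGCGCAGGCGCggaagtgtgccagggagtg
ZBTB33 at Ireb2, chr9:54863674-54863714, plus strand: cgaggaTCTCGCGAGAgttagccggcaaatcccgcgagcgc
NF-Y boxes at Ccnj, chr19:40831193-40831248, minus strand: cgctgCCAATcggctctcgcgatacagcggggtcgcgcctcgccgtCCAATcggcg
A match is a description of letters and does not show which protein protected the site.

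The long footprints were a thin tail of the width distribution. Their median width was 33 bp in both libraries, and the widest reached 70 bp in replicate 1 and 72 bp in replicate 2. They held 10.7% and 14.9% of all footprint bases. Widths of 40 bp or more occurred 2023 and 3164 times, and widths above 50 bp 101 and 105 times. The footprints of 7 to 15 bp, which serve as the comparison throughout, numbered 229172 and 216744. Around the threshold, the 2259 footprints of 29 bp and the 1920 of 30 bp in replicate 1 lay in promoters in 33.02% and 32.2% of cases and had a median peak height of 3.55 and 3.46. In replicate 2 the 2976 of 29 bp and the 2743 of 30 bp had promoter shares of 34.8% and 34.6% and heights of 5.35 and 5.23. The threshold of 30 bp therefore cuts a continuous distribution.

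**Figure D1:**
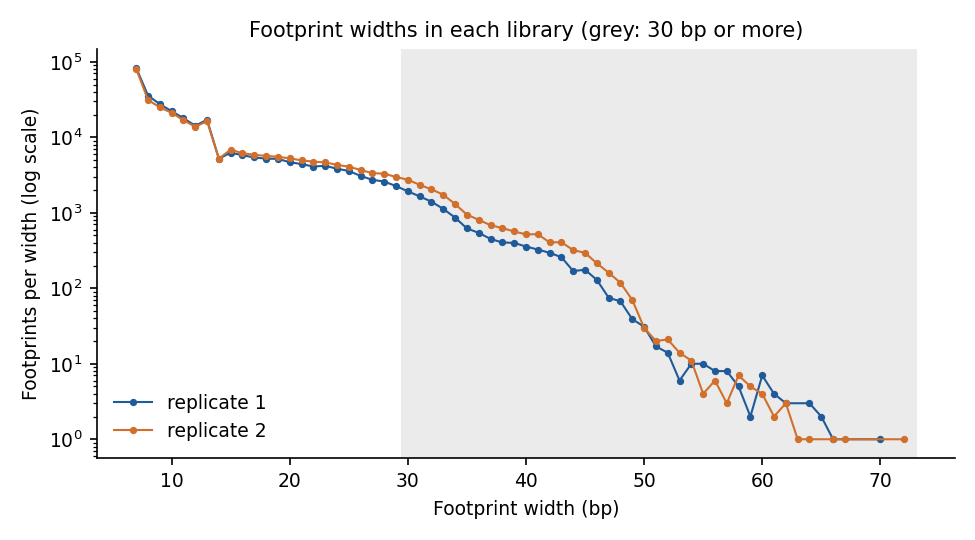
Number of footprints (log scale) at each width in bp, with 1 line per library and the long footprints of 30 bp or more on grey. Replicate 2 lies above replicate 1 from 30 bp to the upper 40s, and both lines end near 70 bp.

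Long footprints sat in tall peaks and near the peak centre. Their centre lay inside a peak of the longer peak list for 95.4% in replicate 1 and 93.3% in replicate 2, against 89.5% and 88.0% of footprints of 7 to 15 bp. The holding peak, for which the authors' signal is the height, had a median height of 4.52 and 6.46 for long footprints. The medians for footprints of 7 to 15 bp were 1.39 and 1.63, so the log2 ratio of medians was 1.84 ± 0.20 (mean ± SD, n = 2 libraries). Of long footprints inside a peak, 51.8% and 51.7% were in the tallest 10% of their library's peaks, against 17.8% of short ones in each library. The distance between the footprint centre and the peak centre had a median of 14 and 16 bp for long footprints and of 38 and 35 bp for short ones.

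The share of peaks with a long footprint climbed with height. It was 6.35% over the 157595 peaks of replicate 1 and 8.45% over the 166206 of replicate 2. In the tallest 10% of peaks it was 30.5% and 39.3%, in the next 10% 17.8% and 25.6%, and in the lowest 10% it was 0 in both libraries. A peak held at most 3 long footprints in replicate 1 and 5 in replicate 2. More DNase cuts fall in a tall peak, so the number of cuts available for calling a footprint moves with height; its part in this pattern was not tested.

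Long footprints were found in promoters more often than short ones, but not at matched peak height. With promoters taken as the 1 kb on either side of an annotated transcription start site (TSS), 41.4% of long footprints lay in promoters in replicate 1 and 39.7% in replicate 2. The shares for footprints of 7 to 15 bp were 30.2% and 30.7%, a difference of 10.2 ± 1.55 percentage points (mean ± SD, n = 2). Footprints of 16 to 29 bp lay in promoters in 41.02% and 42.9% of cases, shares near those of the long class. In the tallest 10% of peaks the order was the other way round. There 66.3% and 61.8% of long footprints lay in promoters, against 74.1% and 73.8% of short ones. In the next 10%, the shares were 13.3% and 12.8% for long footprints and 29.8% and 30.99% for short ones. This split by height was added after the data had been seen. Exons held 3.12% and 3.47% of long footprints, introns 27.7% and 29.2%, and the space between genes 27.7% and 27.6%. For short footprints these shares were 4.36% and 4.86% in exons, 37.4% and 37.3% in introns, and 28.1% and 27.2% between genes.

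**Figure D2:**
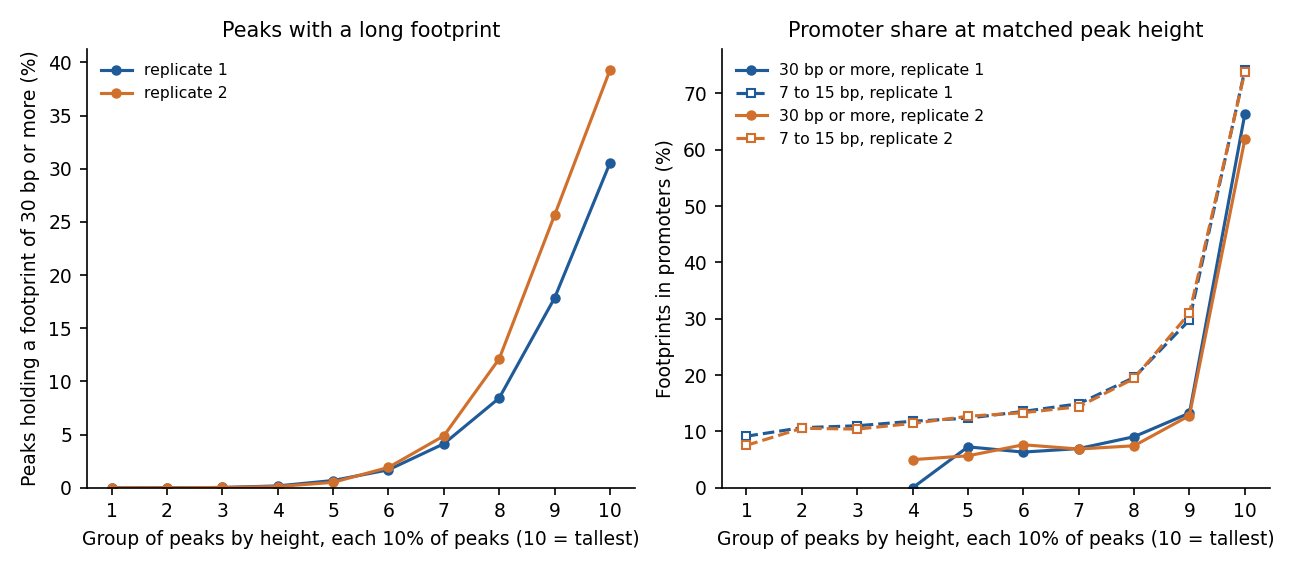
Left, percent of peaks that hold a footprint of 30 bp or more, in 10 equal groups of peaks by height (10 is the tallest) in each library. Right, percent of footprints in promoters in the same groups, filled circles for 30 bp or more (groups with at least 20) and open squares for 7 to 15 bp; the circles lie below the squares of the same library in each group shown, with 66.3% and 74.1% in the tallest group of replicate 1.

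Within promoters, long footprints were shifted upstream of the start site. The median position of their centre was -45 bp from the nearest TSS in replicate 1 and -47 bp in replicate 2, against -14 and -12 bp for footprints of 7 to 15 bp. Upstream of the TSS lay 73.3% and 71.3% of long promoter footprints and 54.4% and 53.8% of short ones. The middle range, from the 25th to the 75th percentile, ran from -121 to 4 bp and from -125 to 8 bp for long footprints. For short ones it ran from -127 to 98 bp and from -129 to 99 bp, so the classes parted on the transcribed side.

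Nearly every long footprint had some counterpart in the other library. An overlap of at least 1 bp with any footprint of the other library was found for 98.3% of long footprints of replicate 1 and 99.04% of replicate 2, against 42.9% and 38.6% of short ones. A wider interval overlaps more easily, so the distance between centres was also used. A footprint centre of the other library lay within 10 bp for 96.6% and 96.9% of long footprints and for 42.7% and 39.8% of short ones. In the tallest 10% of peaks the overlap shares were 99.9% and 99.8% for long footprints and 71.3% and 58.9% for short ones. Only 195 long footprints of replicate 1 and 163 of replicate 2 met no footprint in the other library.

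Length itself was less stable than position. The counterpart was also 30 bp or more for 7954 long footprints in each library. These were 69.8% of the long footprints of replicate 1 and 46.9% of the more numerous ones of replicate 2. For 24.0% and 42.8% the widest counterpart was of 16 to 29 bp, and for 4.44% and 9.35% it was of 7 to 15 bp. A set of 7951 long footprints was shared in the strict sense that both intervals were 30 bp or more and overlapped by at least 50% of each. Of these, 18.7% had the same width in both libraries, 73.3% were within 3 bp and 11.8% had the same start and end. The genes and sites named in the following come from this shared set.

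Sequences around long footprints were richer in G and C than those around short ones and more often held a known element. In 60 bp windows at the footprint centre the mean G and C content of long footprints was 59.1% and 58.8%. Short footprints had 55.4% and 56.6%. Footprints of 16 to 29 bp had 58.8% and 59.7%, so G and C content did not set long footprints apart from that class. In the footprint bases alone the class of 16 to 29 bp was higher, with 63.6% and 65.1% against 61.9% and 61.8% for long footprints. Of 23 motifs searched on both strands, none occurred in 37.1% and 40.6% of long windows and in 61.2% and 62.8% of short ones. Every overlapping 32-mer was unique in the genome for 93.9% and 93.8% of long footprints and for 95.9% and 95.7% of short ones.

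Of the 23 motifs, the CTCF core had the highest share at long footprints. It occurred in 27.0% of the windows of replicate 1 and 26.2% of replicate 2, against 4.32% and 4.42% of windows at short footprints and 8.19% and 8.16% of windows at the centres of all peaks. Outside promoters the shares were 39.6% and 37.6% for long footprints and 4.77% and 4.93% for short ones. In promoters they were 9.19% and 9.05% against 3.28% and 3.26%. Of all footprints with a core in the window, 15.6% and 21.9% were long, where 3.83% and 5.69% of all footprints were.

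Long footprints with a CTCF core differed from those without in place and height. Only 14.1% and 13.7% of them lay in promoters, against 51.5% and 49.0% of long footprints without a core. Their holding peaks had a median height of 3.03 and 4.46, against 6.06 and 8.26. A counterpart of 30 bp or more was found for 78.2% and 54.2% of those with a core and for 66.7% and 44.3% of those without. They lay 9 and 11 bp from the peak centre at the median, against 17 and 20 bp.

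Among factors of CpG-rich promoters, the site of NRF1, a regulator of nuclear genes for mitochondria, matched by GCGC, 2 bases of any kind and GCGC, was in 4.02% and 3.03% of long windows and in 0.734% and 0.759% of short ones. The CRE, TGACGTCA, to which CREB and ATF proteins bind, was in 1.40% and 1.11% against 0.199% and 0.246%. The palindrome in capitals in the Ireb2 sequence, listed here for ZBTB33 (Kaiso), was in 0.219% and 0.189% against 0.0201% and 0.0208%. At peak centres, of which a different share lies in promoters, they were in 0.750% and 0.780% (NRF1), 0.392% and 0.402% (CRE) and 0.0431% and 0.0385% (ZBTB33). These differences came mostly from promoters. Outside them NRF1 was in 0.614% and 0.509% of long windows against 0.157% and 0.196% of short ones, and the CRE in 0.479% and 0.362% against 0.169% and 0.210%. The ZBTB33 palindrome was in none of the long windows outside promoters. At footprints of 16 to 29 bp NRF1 was in 3.04% and 2.82% of all windows and the CRE in 1.02% and 0.833%. Outside promoters the CRE share of that class, 0.497% and 0.418%, was above that of the long one. The GC box of SP and KLF factors, GGGCGG, was in 16.1% and 13.8% of long windows and 8.91% and 9.30% of short ones, a difference of 5.84 percentage points that was 0.645 outside promoters. Windows at footprints of 16 to 29 bp held it in 16.01% and 16.7%, near the long share in replicate 1 and above it in replicate 2. That class was also above the long one outside promoters, with 4.89% and 5.72% against 4% and 4.06%. The CCAAT box of NF-Y, a trimer that resembles histones and binds many promoters, was in 11.6% and 10.6% against 8.17% and 7.71%. In promoters NF-Y boxes were in 17.1% and 15.7% of long windows and 9.34% and 8.89% of short ones. Outside promoters they were in 7.72% and 7.24% of long and 7.66% and 7.18% of short windows, a difference of 0.057 percentage points. The short boxes CCAAT and GGGCGG were also frequent at peak centres, with shares of 8.39% and 7.83%, and of 7.29% and 7.85%. How much of this comes from their length was not tested.

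Some promoter elements came in pairs. Among promoter windows, 1.89% and 1.83% of those at long footprints held at least 2 separate CCAAT boxes, against 0.859% and 0.766% at short ones. Most of this difference came with the higher share of windows with a box: of promoter windows with at least 1, 11.03% and 11.6% at long and 9.20% and 8.61% at short footprints held a pair. The footprint of 56 bp at Ccnj, a cyclin gene, printed above, has a box near each end. Windows with at least 2 GC boxes made up 8.77% and 7.18% of long and 4.70% and 4.37% of short promoter windows, and 26.5% and 25.1% against 21.05% and 19.8% of those with a GC box.

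Other elements were rarer around long footprints than around short ones. AP-1 sites, TGANTCA, bound by Fos and Jun proteins, were in 3.70% and 3.62% of long windows and in 7.64% and 6.47% of short ones. The site CAAGGTCA of SF-1 (Nr5a1), the nuclear receptor that governs steroid-producing cells, was in 0.930% and 0.997% against 1.70% and 1.69%. GATA sites, AGATAA, were in 0.799% and 0.849% against 2.03% and 1.79%. Outside promoters the same order held: AP-1 was in 5.69% and 5.31% of long windows and 10.01% and 8.47% of short ones, and SF-1 in 1.44% and 1.47% against 2.20% in each library. When only the bases of the footprint itself were searched all 3 differences changed sign. An interval of 30 bp offers more positions than one of 7 to 15 bp, and the part this plays was not tested.

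**Figure D3:**
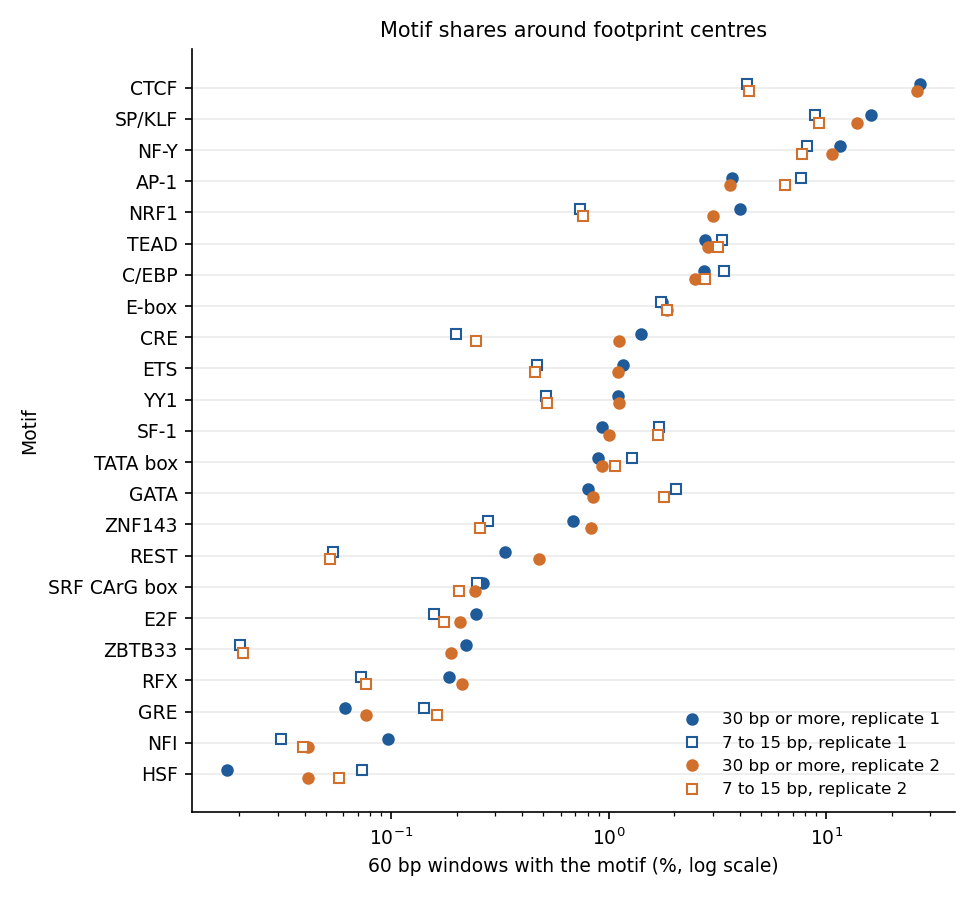
Percent of 60 bp windows around footprint centres that hold each of 23 motifs (log scale), filled circles for footprints of 30 bp or more and open squares for 7 to 15 bp, coloured by library. CTCF is the motif with the highest share at long footprints (27.0% and 26.2%), and AP-1, SF-1 and GATA lie lower at long than at short footprints.

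CTCF footprints had more than 1 length. Outside promoters, the share of windows with a core rose with width to 44.1% and 39.04% at 30 to 32 bp, fell to 28.4% and 27.3% at 36 to 38 bp and rose again to 38.99% and 44.4% at 42 to 44 bp. At 51 to 55 bp it was 4.76% of 21 footprints and 0 of 24. The edges of footprints over a single core showed what differed. In the 2232 and 3034 footprints of 30 to 35 bp, the upstream edge lay a median of 6 bp before the core and the downstream edge 14 bp after it. In the 380 and 719 footprints of 41 bp or more, the upstream edge lay 21 bp before the core and the downstream edge 10 and 11 bp after it. The added length of the wide footprints thus lay upstream of the core. The widths and edges are both parts of the same interval, so this is a description.

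**Figure D4:**
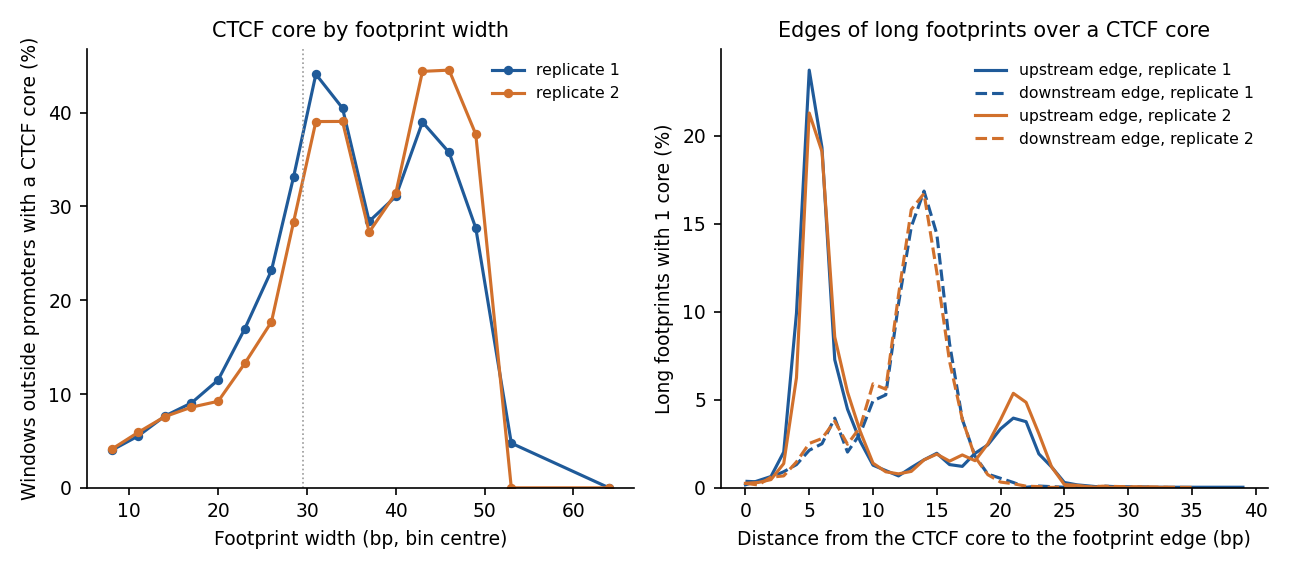
Left, percent of 60 bp windows outside promoters that hold a CTCF core, by footprint width, with 30 bp dotted; the share is high at 30 to 32 bp, falls at 36 to 38 bp and is high again at 42 to 44 bp in each library. Right, distance in bp from the core to the upstream (solid) and downstream (dashed) edge for footprints of 30 bp or more with 1 core, with the most common upstream edges near 5 bp and a lesser group near 21 bp.

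Wide CTCF footprints often held a further element upstream of the core. An upstream element contacted by other zinc fingers is known at a subset of CTCF sites. The sequence TGCANTNCC, with its first base 17 bp before the core, was present at 86 of the 380 footprints of 41 bp or more in replicate 1 (22.6%) and at 163 of the 719 in replicate 2 (22.7%). Footprints of 36 to 40 bp, with a median upstream edge 18 bp before the core, held it in similar shares, at 77 of 344 (22.4%) and 129 of 533 (24.2%). At footprints of 30 to 35 bp it was present at 71 of 2232 (3.18%) and 72 of 3034 (2.37%), and at footprints of 20 to 29 bp at 2.27% and 2.43%. With up to 1 mismatch allowed, the shares were 46.8% and 49.1% at 41 bp or more against 8.11% and 5.57% at 30 to 35 bp. Read the other way, the median footprint width was 34 and 38 bp over cores with the exact element, 29 and 34 bp with 1 mismatch and 27 and 29 bp with 2 or more. The element was looked for after the edges had been seen. Among footprints of 41 bp or more with no long counterpart in the other library, it was present at 2 of 38 in replicate 1 (5.26%) and 38 of 212 in replicate 2 (17.9%). The widths called for 1 site in the libraries are not independent, since the sequence is the same in both.

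Transfer RNA genes carried the other class of long footprints with a fixed place. Of 403 tRNA genes annotated by RefSeq on the chromosomes used, 218 in replicate 1 and 221 in replicate 2 had a peak over the gene or the 50 bp before it, and 142 and 162 had a long footprint. Long footprints centred from -50 to 10 bp or from 40 to 80 bp of the gene start numbered 203 and 237, or 1.78% and 1.40% of all long footprints. Of footprints of 7 to 15 bp, 0.105% and 0.100% lay there, and of those of 16 to 29 bp, 0.214% and 0.132%. Elsewhere at or near these genes lay 12 and 23 long footprints and 184 and 158 of 7 to 15 bp. A total of 131 genes had a long footprint in both libraries.

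The tRNA footprints took 2 positions. An upstream one was found at 105 and 94 genes and ran at the median from -48 to -3 bp in replicate 1 and from -48 to 2 bp in replicate 2, counted from the start of the gene, with a median width of 44 and 43.5 bp. This is the stretch that TFIIIB is known to occupy. An internal one was found at 98 and 143 genes and ran from 40 to 76 bp, with a width of 35 and 36 bp, over the B box region that TFIIIC is known to bind. Both positions were covered by long footprints at 61 and 75 genes. The pair at n-TNgtt14, printed above, is an example, with widths of 44 and 42 bp upstream and 37 and 39 bp inside, in a peak of height 22.9 in replicate 1 and 30.9 in replicate 2. Among the widest footprints, those above 50 bp, 29 of 101 and 28 of 105 were at tRNA genes. The copies of a tRNA gene are near-identical, and the median share of unique 32-mers was 48.6% and 49.3% over internal footprints but 100% and 97.4% over upstream ones. Reads inside the genes can therefore not be placed with certainty. With only footprints whose 32-mers were all unique, the difference in share between long and short footprints fell from 1.49 to 0.387 percentage points.

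**Figure D5:**
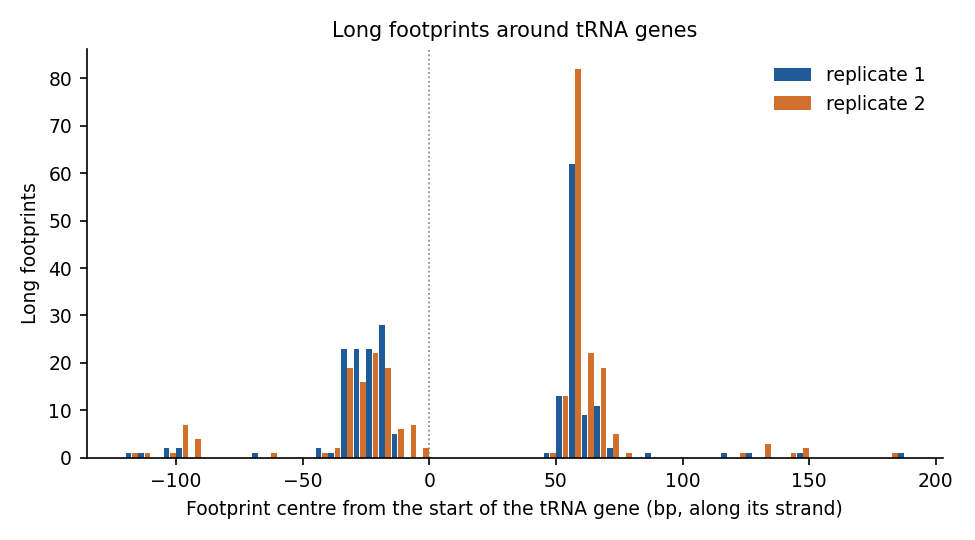
Number of long footprints by the position of their centre relative to the start of the nearest tRNA gene (bp, along the strand of the gene), with bars for each library and the start dotted. The centres gather in 1 group from about -35 to -15 bp and another from about 50 to 70 bp inside the gene.

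The 10 shared footprints of largest mean width were mixed in kind. The widest, 62 bp in replicate 1 and 72 bp in replicate 2 at chr4:67208577-67208638, lay between genes in a repeat-masked tandem repeat of which 41.9% of 32-mers were unique, in a low peak of height 1.29 and 1.52. The next, 70 and 61 bp at chr9:56223579-56223648, lay 157 bp from the TSS of Gm24270 with 54.5% of 32-mers unique. Neither holds any of the 23 motifs. Of the other 8, 5 lay upstream of or over the start of tRNA genes: n-TScga2 (62 and 63 bp), n-TRtcg4 (61 and 64 bp), n-TYgta10 (64 and 60 bp), n-TLtag1 (59 and 62 bp) and n-TRtcg5 (59 bp in each). The remaining 3 were promoter footprints with a CCAAT box, at Epb41 (60 bp in each), Ccnj (56 and 62 bp) and Foxn3 (58 and 59 bp), in peaks of height 19.1 and 25.2, 14.1 and 18.01, and 20.7 and 30.6.

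The tallest peak with a shared long footprint, by mean height, was a promoter. At Dynlt1b, a dynein light chain gene, footprints of 39 and 33 bp and of 47 bp in each library lay in a peak of height 43.2 and 65.8, but only 50% and 65.4% of their 32-mers were unique. At Bahcc1, footprints of 36 and 37 bp and of 31 bp lay at -240 and -161 bp from the TSS in a peak of 36.8 and 56.9, and the second holds a CCAAT box. In introns the tallest was at Nr1d1, which encodes the clock repressor REV-ERBα. Its footprint of 35 and 36 bp, printed above, holds 2 copies of the E-box CACGTG, to which the clock proteins CLOCK and BMAL1 bind, in a peak of height 29.1 and 40.8. A second footprint in the same peak, of 33 and 34 bp, holds GC boxes. Over all long footprints the E-box was in 1.76% and 1.85% of windows, against 1.74% and 1.84% of short ones. Between genes the tallest, at chr6:49236510-49236543 with heights of 41.4 and 55.2, had 12.3% unique 32-mers. The tallest between genes with only unique sequence were 2 neighbours at chr16:4541812-4541845 and chr16:4541887-4541924, in a peak of 24.6 and 36.8.

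Several long footprints could lie at 1 gene. Shared long footprints lay within 1 kb of a TSS for 3515 genes of any type, of which 674 had 2 or more and 82 had 3 or more. Rab11b, a GTPase of recycling endosomes, had the most with 5, of 32 to 43 bp, in promoter peaks of up to 19.9 and 28.7; the same 5 count for the non-coding Gm17251, which starts beside it. Smarcc2, a subunit of the SWI/SNF remodelling complex, had 4, which it shares with Mir8105 and of which the widest is that of n-TScga2. Sets of 4 were also found at Hexim2, an inhibitor of the elongation factor P-TEFb, at Icmt, a carboxyl methyltransferase, and at the pair Fgd6 and Vezt, which share theirs with Gm49628. Park7, which encodes DJ-1, had 3 of 40 to 57 bp.

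Whether the genes of the adrenal carry long promoter footprints was read from 12 gene lists. Over all 21938 protein-coding genes, 2827 (12.9%) had a shared long footprint within 1 kb of a TSS. That share rose with promoter height, taken as the mean of both libraries. It was 0 of 6428 genes at a height of 0 and 0.287% of 3137 genes above 0 and below 2. From 2 to 5 it was 5.07% of 2287 and from 5 to 10 12.96% of 3365. From 10 to 20 it was 28.2% of 5188 and at 20 or more 52.5% of 1533. The lists are given with their median promoter heights, to be read against genes of like height.

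The steroid-producing genes of the list had no shared long promoter footprint. None of the 15 list genes had one, and their median promoter height was 3.61 in replicate 1 and 5.05 in replicate 2. Of all protein-coding genes at mean promoter heights of 2 to 5, 5.07% had one. Heights in the list ran from 0 at Hsd3b1 to 20.6 and 28.7 at Por, so that share does not serve all 15. At heights of 10 to 20, where Fdxr, Fdx1 and Scarb1 lie, 28.2% of genes had one, and at 20 or more, where Por lies, 52.5%. Whether none among 15 departs from genes of like height was not tested. Peaks were present at 13 and 12 of the 15 promoters, which covers the defining genes of the cortex in part. Star, which moves cholesterol into mitochondria, had promoter footprints of at most 23 and 25 bp in peaks of 6.31 and 9.07. Cyp11a1, the side-chain cleavage enzyme, had at most 20 and 19 bp in peaks of 6.15 and 9.47. Por, which passes electrons to cytochrome P450 enzymes, had at most 21 and 22 bp among 11 footprints in each library, in peaks of 20.6 and 28.7. Fdxr, a mitochondrial reductase, had at most 27 bp in peaks of 16.3 and 23.0. Cyp21a1, the 21-hydroxylase, came closest, with 29 bp in replicate 1 and 31 bp in replicate 2.

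Away from promoters, a pair of shared long footprints had a steroid gene as the nearest TSS. One of 38 and 39 bp, at chr9:58009124-58009161 and -5528 bp from the TSS of Cyp11a1, lay in an annotated intron in a peak of 7.95 and 10.2. One of 46 and 45 bp, at chr5:125348622-125348667 and -7551 bp from the TSS of Scarb1, the receptor that takes up high-density lipoprotein cholesterol, lay between genes in a peak of 4.09 and 6.09. These were chosen for print after their values had been seen:
upstream of Cyp11a1, chr9:58009124-58009161, plus strand: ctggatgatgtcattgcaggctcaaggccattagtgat
upstream of Scarb1, chr5:125348622-125348667, plus strand: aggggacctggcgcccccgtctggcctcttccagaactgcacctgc
Neither holds any of the 23 motifs as spelled here.

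The 14 cholesterol genes had median promoter heights of 15.5 and 22.8. Among them 3 (21.4%) carried a shared long promoter footprint, against 28.2% of all protein-coding genes at mean heights of 10 to 20. At Hmgcs1, the HMG-CoA synthase, and at Fdps, the farnesyl diphosphate synthase, it held a CCAAT box, at -130 and -112 bp from the TSS. The Hmgcs1 footprint was 32 and 30 bp wide in a peak of 17.6 and 25.1, and that of Fdps 32 bp in each library in a peak of 11.4 and 17.4. At Idi1, the isomerase between those steps, it was 33 and 32 bp wide, 150 bp downstream of the TSS, with none of the motifs. The CCAAT boxes are in capitals:
NF-Y at Hmgcs1, chr13:119690300-119690331, minus strand: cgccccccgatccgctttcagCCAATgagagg
NF-Y at Fdps, chr3:89102055-89102086, minus strand: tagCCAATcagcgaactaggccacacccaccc
Of the 11 adrenal transcription factors, with median promoter heights of 6.62 and 10.9, 1 (9.09%) had one. Of all protein-coding genes at heights of 5 to 10, 12.96% had one, but heights in the list ran from 0.505 and 0.432 at Tcf21 to 15.5 and 24.7 at Nr4a1. The factor with one was Cited2, a co-regulator, with a footprint of 49 and 53 bp, at -82 bp from its TSS in a peak of 13.2 and 18.9.

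Within 1 kb of the TSS of 3 chromaffin genes, long footprints held REST elements. Of 22 genes of the medulla, 4 had a shared long footprint within 1 kb, at a median promoter height of 1.30 and 2.11. The one counted for Slc18a1 lies 18 bp from the TSS of its neighbour Atp6v1b2 and has a GC box. The other 3, printed above, each contain the element of REST, searched as CAGCACC, 2 bases of any kind and GGACAG. The footprint at Chga, which encodes chromogranin A of the secretory granules, was 32 and 31 bp wide, 278 bp into the gene, in a peak of 2.17 and 6.40. That at Chgb, chromogranin B, was 35 and 34 bp wide, 525 bp from the TSS, in a peak of 10.4 and 17.01. That at Snap25, a SNARE protein of vesicle release, was 31 and 32 bp wide, 870 bp from the TSS, in a peak of 5.22 and 9.003. REST is absent or low in many neuronal cells and present in most others, and these libraries do not say in which cells of the gland the sites were protected.

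The REST element was rare and more frequent around long than short footprints. It was in the windows of 38 long footprints of replicate 1 (0.333%) and 81 of replicate 2 (0.478%), against 0.0537% and 0.0521% of short ones and 0.167% and 0.180% of peak centres. Footprints of 16 to 29 bp held it in 0.279% and 0.259% of windows, and outside promoters in replicate 1 this class was above the long one (0.387% against 0.315%). At 40 bp or more the difference from short footprints was 0.0439 percentage points, against 0.353 at 30 bp or more. Of footprints with the element, 11.9% and 22.4% were long. The shared set held 29, of which 13 were in promoters. Besides the chromaffin genes these included Hrh3, a histamine receptor (33 and 36 bp), Chrnb2, a nicotinic receptor subunit (31 bp in each), and the homeobox genes Lhx3 (31 and 32 bp), Barhl1 (30 and 31 bp) and Bsx (33 and 30 bp). The tallest peak with the element, 9.98 and 24.9, lay in an intron near Mir598 and held a pair of them, of 30 and 32 bp and of 32 and 34 bp. Between the libraries this peak and that of Chga differed by more than the medians over long footprints, 4.52 and 6.46, did.

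Immediate early genes, which respond to stimuli within minutes, often had long footprints, in tall promoters. Of 8, 5 (62.5%) had a shared one within 1 kb, at median promoter heights of 15.6 and 21.6. Of all protein-coding genes at mean heights of 10 to 20, 28.2% had one. Jun had 2, of 35 and 33 bp at -38 bp and of 35 and 34 bp at -218 bp. Btg2 had 2 as well, of 34 and 35 bp and of 37 and 36 bp, and the second holds a CCAAT box and a CRE. Ier2 had one of 35 and 38 bp with a CRE, at -33 bp from its TSS, and Egr1 and Atf3 had 1 each, of 31 and 33 bp and of 42 and 41 bp. The centre of the Atf3 footprint in replicate 1, and that of the second at Btg2 in both libraries, fell outside any listed peak, as did that of Pgk1 in replicate 1. At Fos and Junb the long footprints were distal. A footprint of 33 and 37 bp, 12226 bp downstream of the Fos TSS, holds a CArG box, the element of the serum response factor SRF, in a peak of 13.9 and 20.8. One of 33 and 32 bp, 2085 bp downstream of the Junb TSS, holds another, in a peak of 14.9 and 19.1; both are printed above. Over all long footprints the CArG box was in 0.263% and 0.242% of windows, against 0.248% and 0.205% of short ones. With 40 bp or more the difference was 0.201 percentage points, against 0.0258 at 30 bp or more.

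Of 13 clock genes, 2 (15.4%) had a shared long promoter footprint, at median promoter heights of 15.4 and 23.6. Of all protein-coding genes at mean heights of 10 to 20, 28.2% had one. The 2 were Dbp, a clock output factor, with 31 and 30 bp and with 34 and 30 bp, and Cry2, a clock repressor, with 33 bp in each. Counting sites whose nearest TSS was a list gene, 12 lay at 6 clock genes, 3 of them at Nr1d1. Of 14 housekeeping genes, 7 had one within 1 kb, among them Rplp0 (40 bp in each library), Ywhaz (37 bp in each), Ppia (33 and 44 bp), Actb (36 and 31 bp), B2m (33 and 31 bp) and Pgk1 (32 bp in each). Their list had median heights of 13.3 and 19.1, and 50% of it had one, against the 28.2% at mean heights of 10 to 20. None of the 13 endothelial, 10 macrophage, 8 lymphocyte, 8 liver and 7 kidney genes had one. The median promoter heights of the lymphocyte, liver and kidney lists were 0 in both libraries, those of the macrophage list 0 and 0.534, and those of the endothelial list 1.82 and 2.27.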

How the data were processed

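DNase-seq of adrenal gland gave 2 libraries of 1 group. The deposited peak height is a signal, scaled by the authors in a way their text does not state. The deposited table of false discovery rates holds q-values, listed only under 0.05. The footprint lists, as deposited, give 1 constant p-value of 0.01. Each file was made from 1 library's own alignments on mm10, per the text deposited with it; the aligner, callers and depth are not given in the sources used.

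Footprints were placed by their centre into promoters (1 kb around a TSS of GENCODE M21 basic), exons, introns or the rest, and into the tallest peak of the longer list holding the centre. Motifs were searched in 60 bp windows. Uniqueness is the share of overlapping 32-mers that occur once in GRCm38.p6. tRNA genes are those of RefSeq. Scripts ran in Python 3.11.15 (matplotlib 3.10.9 for plots; numba 0.67.0, numpy 2.4.6 and pandas 2.3.3 for computation), and the searches were tested on simulated data. The comparison class was 7 to 15 bp. With 2 libraries and no second condition no test was made, and footprints are not replicates. It cannot be told how far the spread between libraries is technical.

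Footprints and genes were named from the 10 widest shared footprints, the 5 in the tallest peaks of each place class, the 10 genes with the most, list genes with one (1 is not reported here), and for each motif the 2 in the tallest peaks; not all are printed, and none of those in exons. The members, lists and motifs were chosen with earlier results of these data known. The CTCF widths and upstream element, the tRNA genes, the REST sites and the split by peak height were chosen after values had been seen. Alternatives were other windows, widths, overlaps, peak lists and places, and each library left out.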

Additional observations from a re-analysis of the deposited data

How the results depend on the processing

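Values are differences between footprints of 30 bp or more and of 7 to 15 bp, averaged over the libraries. No paired analysis was possible because there is 1 group. With either library left out, the promoter share was 9.06 to 11.3 percentage points, the log2 height ratio 1.70 to 1.98, the share inside a peak 5.30 to 5.93, the share with a counterpart 55.4 to 60.4, the CTCF share 21.8 to 22.7 and the G and C content 2.28 to 3.70.

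The promoter difference of 10.2 became -9.88 in the tallest 10% of peaks and -17.3 in the next 10%; in both cases the part that peak height plays was not tested further. With 40 bp or more in place of 30, it was 14.7, the log2 height ratio 2.18 and the CTCF share 20.1. Against all footprints under 30 bp, the promoter difference was 7.68, the log2 height ratio 1.56, the share inside a peak 4.98 and that with a counterpart 47.6. With the shorter peak list the log2 height ratio was 1.40 and the share inside a peak 22.9. The share with a counterpart was 62.3 at a reciprocal overlap of 50%, 52.7 inside peaks of both libraries and 34.8 in the tallest 10% of peaks. The CTCF share was 25.7 in the footprint bases alone, 33.8 outside promoters and 26.4 outside promoters in the tallest 10% of peaks.

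In the footprint bases alone, which are more in a long footprint by construction, differences turned positive for AP-1 (1.89), SF-1 (0.545), GATA (0.136), the TATA box (0.305), C/EBP (1.22), GRE (0.0162), HSF (0.0265) and TEAD (1.22). TEAD, at -0.434 for 30 bp or more, was 0.229 at 40 bp or more. The E-box, at 0.0115 for 30 bp or more, was -0.184 at 40 bp or more and -0.372 outside promoters. ETS was 0.670 over all places and -0.00209 outside promoters, and ZBTB33 0.184 and -0.000312. The cause of these changes was not tested. Read counts and depth per site were not analysed here. The deposited footprints, widths and peak heights were made from reads, and how far they move with depth was not tested.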

Other observations

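Further list genes had long footprints at distal sites. A footprint of 41 and 38 bp in an intron 5156 bp into the Th locus, which encodes the rate-limiting enzyme of catecholamine synthesis, held a CTCF core with the upstream element, in a peak of height 2.55 and 4.33. A footprint of 30 and 31 bp near Slc18a2, the vesicular monoamine transporter, held the SF-1 site, in a peak of 5.34 and 7.20. At Per1, a clock gene, a footprint of 32 and 31 bp held 2 AP-1 sites, in a peak of 4.68 and 5.70. Spi1, a transcription factor gene of macrophages, had a footprint of 34 bp in each library inside an intron, in a peak of 6.81 and 10.96, with none of the 23 motifs.

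Among elements that were more frequent around long footprints, YY1 was found in 1.11% of windows in each library against 0.512% and 0.517% around short ones, and it was also above them outside promoters (1.20% and 1.14% against 0.372% and 0.380%). ZNF143 was found in 0.685% and 0.826% against 0.278% and 0.255%. Outside promoters these were 0.0899% and 0.127% against 0.0756% and 0.0679%.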
